A study of Mus musculus with 19 samples.

Results

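The genes of polycomb repressive complex 2 (PRC2) and of DNA methylation were measured by bulk RNA sequencing in mouse tongue epithelia. The 10 genes were taken from a list of symbols: Ezh1, Ezh2, Eed, Suz12 and Jarid2 of PRC2, and Dnmt1, Dnmt3a, Dnmt3b, Uhrf1 and Hells of DNA methylation. All 10 were among the 24689 gene symbols of the deposited table, and all 10 passed the filter on low values, which left 22745 genes for testing.

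The study induced the E6-E7 oncogenes of human papillomavirus, a constitutively active YAP1S127A, or both, in the basal cells of the tongue. Epithelia were microdissected 15 days after induction, and each of the 19 libraries came from its own mouse, so the mice are biological replicates. Values are TPM (transcripts per 1000000 transcripts), which are scaled by gene length and sum to the same total in each mouse. Whole reads could be recovered from the TPM steps, and gave 8269674 to 11007304 reads per mouse.

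The E epithelia (n = 5) carried Krt14-CreERT, LSL-rtTA and tetON_E6-E7, the Y epithelia (n = 3) Krt14-CreERT, LSL-rtTA and tetON_YAP1S127A, and the EY epithelia (n = 6) all 4 of these alleles. Of the N controls (n = 5), mice 1, 2 and 3 carried Krt14-CreERT and LSL-rtTA, mouse 4 carried LSL-rtTA without Cre, and mouse 5 carried Krt14-CreERT and both effector transgenes without rtTA. The methods of the study describe adult littermates balanced for age and sex, an H2B-GFP reporter, tamoxifen injected into the tongue and doxycycline chow. Cre was driven by the Krt14 promoter, so the transgenes started in basal cells, while RNA was taken from the whole epithelium, with cells in which no transgene was induced. Fewer cells of a type and less RNA per cell cannot be told apart in these bulk samples.

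PRC2 places methyl groups on lysine 27 of histone H3, a mark of silenced genes, through either of the catalytic subunits EZH2, which is abundant in dividing cells, and EZH1, which persists in resting cells, and it needs EED and SUZ12 for activity. DNA methylation is set by DNMT3A and DNMT3B and copied at each replication by DNMT1, which UHRF1 brings to newly made DNA and for which the helicase HELLS opens chromatin. In stratified epithelia PRC2 and DNMT1 are known for holding back differentiation genes in basal progenitors.

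In EY epithelia 6 of the 10 genes rose against N: Ezh2, Eed, Suz12, Dnmt1, Uhrf1 and Hells. Each was higher in all 6 EY mice than in any N mouse. All 6 passed both an adjusted p below 0.01 and a log2 fold change above 1, the thresholds of a DEG here (limma on log2(TPM + 0.1), Benjamini-Hochberg over all genes tested). Among all genes, 23.9% passed as higher and 12.6% were DEGs higher in EY. None of the 10 passed as lower, against 7.97% of all genes. The median log2 fold change was 1.18 over the 10 genes and 0.33 over all genes tested.

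That general shift matters for the genes near 0. Scaling each mouse by its median of ratios moved the all-gene median from 0.33 to 0.0091 in EY against N, from 0.13 to -0.04 in Y against N, from 0.18 to 0.02 in EY against Y and from 0.26 to 0.04 in EY against E. Among all genes, the shares passing as higher and lower then went from 23.9% and 7.97% to 13.5% and 13.9% in EY against N, from 7.17% and 1.34% to 3.84% and 2.38% in Y against N, and from 2.34% and 1.19% to 1.18% and 1.75% in EY against Y. They went from 18.1% and 7.16% to 11.2% and 11.5% in EY against E, from 3.30% and 1.04% to 2.55% and 1.48% in Y against E, and from 1.71% and 0.0440% to 1.354% and 0.110% in E against N. After scaling the same 6 genes passed as higher, and Ezh1 and Jarid2 passed as lower. Ezh2 (0.75) and Dnmt1 (0.87) then had a log2 fold change below 1 and were no longer DEGs.

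**Figure D1:**
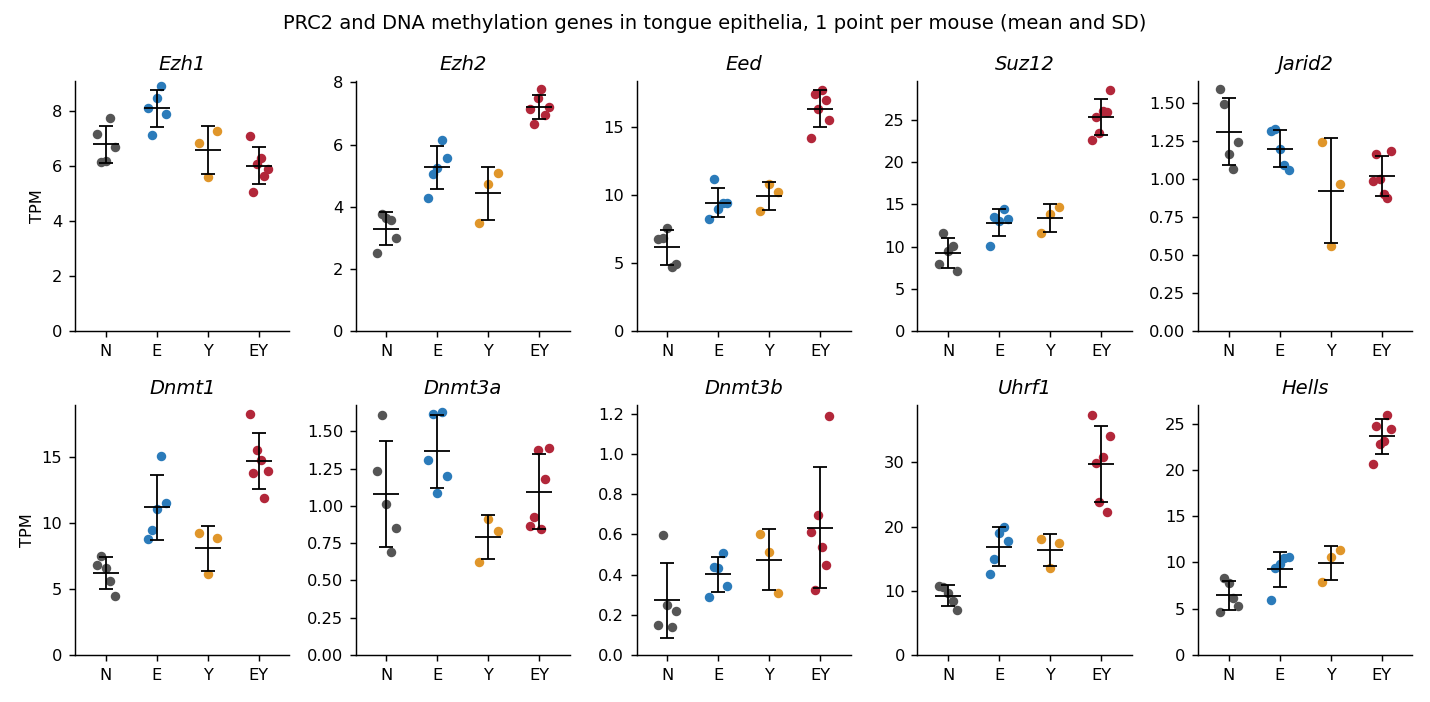
TPM (vertical axes, each from 0) of the 10 genes in N, E, Y and EY epithelia, 1 point per mouse, with the mean and SD. All 6 EY mice lie above every N mouse for Ezh2, Eed, Suz12, Dnmt1, Uhrf1 and Hells, while the groups overlap for Ezh1, Jarid2, Dnmt3a and Dnmt3b.

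Ezh2, the catalytic subunit of dividing cells, was at 2.52, 3.77, 3.63, 3.56 and 2.99 TPM in the N mice and at 4.27, 5.07, 5.26, 6.15 and 5.58 TPM in the E mice. The Y mice had 3.47, 4.73 and 5.09 TPM, and the EY mice 6.67 to 7.78 TPM with a median of 7.18. The EY mice lay above every mouse of the other groups, the E mice lay above every N mouse, and Y mouse 1 fell within the N range. The log2 fold change in EY was 1.12 with a standard error of 0.13 (limma, adjusted p = 1.84e-06), and scaling brought it to 0.75 (adjusted p = 8.06e-05).

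Ezh1, the alternative catalytic subunit, was at 7.17, 6.17, 6.19, 7.77 and 6.70 TPM in the N mice and at 8.10, 7.13, 8.49, 8.91 and 7.89 TPM in the E mice. It was at 6.85, 5.61 and 7.30 TPM in the Y mice and at 5.06 to 7.10 TPM, with a median of 5.99, in the EY mice. The EY and N mice overlapped, though 4 of the 6 EY values were lower than any N value. The log2 fold change in EY against N was -0.17 and did not pass (limma, adjusted p = 0.195), while after scaling it was -0.55 and passed (adjusted p = 0.00137).

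The balance of the catalytic subunits shifted within each mouse. Ezh2 made up 32.6% ± 4.89 (SD, n = 5) of the summed TPM of Ezh1 and Ezh2 in N, 39.3% ± 3.00 (n = 5) in E, 40.2% ± 6.13 in the 3 Y mice and 54.6% ± 2.26 in the 6 EY mice. Ezh1 was thus the more abundant per length in every N, E and Y mouse, and Ezh2 in all 6 EY mice, where its share ran from 50.2% to 56.9%. A ratio of genes within a mouse does not move with the scaling of that mouse, apart from the 0.1 TPM added to each gene for the log2 ratios. The log2 ratio of Ezh2 to Ezh1 was 1.30 higher in EY than in N (exact permutation test, p = 0.00433, the smallest these groups allow, adjusted p = 0.0253 over 35 ratio tests). It was 0.88 higher in EY than in E (exact p = 0.00433, adjusted p = 0.0253) and 0.83 higher in EY than in Y (exact p = 0.0238, the smallest possible with 6 and 3 mice, adjusted p = 0.0694). With only the 3 N mice that carried Krt14-CreERT and LSL-rtTA, neither this ratio nor any other of those below kept an adjusted p under 0.05, since fewer label orders exist. In E and Y against N the differences were 0.41 and 0.46 (exact p = 0.0317 and 0.143, adjusted p = 0.0794 and 0.192).

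Suz12, which holds the complex together, was at 7.96, 11.6, 9.44, 10.1 and 7.17 TPM in N, at 10.1, 13.4, 13.0, 14.4 and 13.2 TPM in E and at 11.6, 13.9 and 14.7 TPM in Y mice. In EY mice it was at 22.5 to 28.5 TPM with a median of 25.6, above every other mouse. Its log2 fold change in EY was 1.46 with a standard error of 0.12 (limma, adjusted p = 5.47e-08). Eed, which binds the methylated histone, was at 6.77, 6.81, 7.61, 4.69 and 4.95 TPM in N, at 8.22, 11.2, 8.97, 9.42 and 9.41 TPM in E, and at 8.82, 10.8 and 10.2 TPM in Y mice. Every E, Y and EY mouse was above every N mouse, and the EY mice, at 14.2 to 17.7 TPM with a median of 16.7, were above all others. The log2 fold change in EY was 1.41 with a standard error of 0.12 (limma, adjusted p = 9.39e-08).

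Ezh2 rose less than its partners between E and EY. Its log2 ratio to the mean of Eed and Suz12 was 0.43 lower in EY than in E in all 6 mice (exact permutation p = 0.00433, adjusted p = 0.0253), and the difference from N, -0.31, did not pass 0.05 after adjustment (exact p = 0.0260, adjusted p = 0.0699), though it did with a pseudocount of 1 TPM (-0.39, adjusted p = 0.0275). The ratio in Y was 0.21 below N (exact p = 0.179, adjusted p = 0.231), and EY was 0.11 below Y (exact p = 0.262, adjusted p = 0.316), so a lower ratio was not shown to belong to the double transgene.

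Jarid2, a DNA-binding cofactor that guides the complex to its targets, ranged from 0.877 to 1.19 TPM in EY and from 1.07 to 1.60 TPM in N epithelia. Its log2 fold change in EY was -0.33 (limma, adjusted p = 0.176) as deposited and -0.68 after median-of-ratios scaling, which passed (adjusted p = 0.00547). In Y it was at -0.51 against N and did not pass (limma, adjusted p = 0.142), while with voom on the recovered reads it was at -0.78 and passed (adjusted p = 0.00695).

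**Figure D2:**
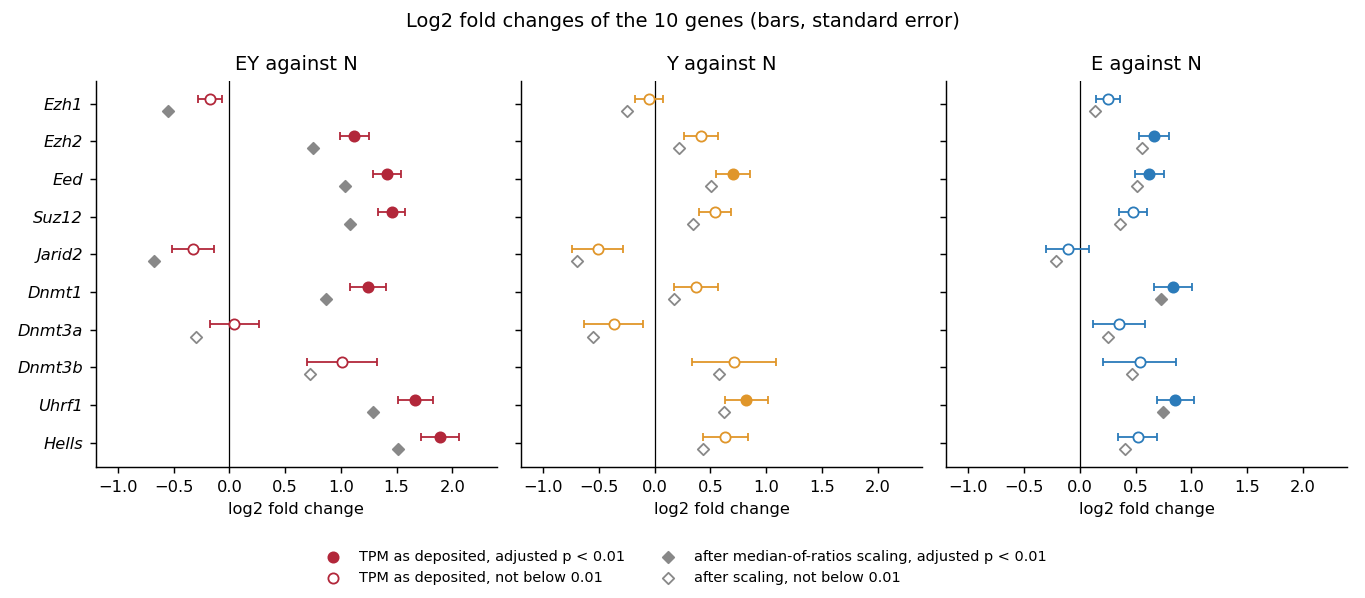
Log2 fold change (horizontal axis) of each gene in EY, Y and E against N from limma on log2(TPM + 0.1), with the standard error, as deposited (circles) and after median-of-ratios scaling (diamonds); filled symbols had an adjusted p below 0.01. In EY the 6 filled circles lie between 1.12 and 1.89, and Ezh1 and Jarid2 are filled, below 0, after scaling alone.

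Among the DNA methylation genes, Hells had the largest fold change of the 10. It was at 4.66, 8.32, 7.81, 6.18 and 5.25 TPM in N, at 5.91, 9.41, 9.79, 10.4 and 10.6 TPM in E, and at 7.83, 10.6 and 11.3 TPM in Y mice. In EY mice it was at 20.6 to 26.0 TPM with a median of 23.8, with no overlap with any other group. The log2 fold change was 1.89 with a standard error of 0.17 (limma, adjusted p = 1.14e-07).

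Uhrf1, which recognizes half-methylated DNA behind the replication fork, was at 10.8, 10.6, 9.58, 8.34 and 6.99 TPM in N, at 12.6, 15.002, 18.97, 19.9 and 17.8 TPM in E, and at 18.1, 13.5 and 17.4 TPM in Y mice. The EY mice had 22.3 to 37.4 TPM with a median of 30.4, the widest range of the 10 genes in TPM. Every E, Y and EY mouse was above every N mouse, and every EY mouse was above every E and Y mouse. The log2 fold change in EY was 1.67 with a standard error of 0.16 (limma, adjusted p = 2.49e-07).

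Dnmt1, the maintenance methyltransferase, was at 6.81, 7.54, 6.63, 5.58 and 4.47 TPM in N, at 8.78, 9.46, 11.1, 15.1 and 11.5 TPM in E, and at 9.25, 6.13 and 8.84 TPM in Y mice. In EY mice it was at 11.9 to 18.3 TPM with a median of 14.4, so that EY and E mice overlapped. The log2 fold change in EY against N was 1.24 with a standard error of 0.16 (limma, adjusted p = 8.94e-06), and 0.87 after scaling.

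The de novo methyltransferases were low. Dnmt3a ranged from 0.625 to 1.63 TPM over the 19 mice and overlapped in N and EY, with a log2 fold change in EY of 0.04 (limma, adjusted p = 0.897) that turned to -0.30 after median-of-ratios scaling (adjusted p = 0.241). Exons of Dnmt3a and Eed are overlapped on the opposite strand by Dnmt3aos and E230029C05Rik, at means of 0.312 and 0.386 TPM over the 19 mice, and those of Ezh2 and Suz12 by Gm26625 and Gm26563, which had no matching symbol in the table. Whether the counting used strand was not stated, so such reads cannot be told apart. Dnmt3b rested on 10 to 77 reads per mouse and averaged 0.271 ± 0.188 TPM (SD) in the 5 N mice and 0.634 ± 0.302 TPM in the 6 EY mice. At a log2 fold change of 1.01 (standard error 0.31) it did not pass (limma, adjusted p = 0.0147), and 3 of 6 EY mice were above every N mouse. The adjusted p of Dnmt3b was 0.00201 without N mouse 2 and 0.00752 without EY mouse 2. It did not pass after scaling (0.73, limma adjusted p = 0.0622) or on recovered reads (0.90, voom adjusted p = 0.0647). Over all fits its log2 fold change ran from 0.35 to 1.28. The log2 ratio of Dnmt1 to Dnmt3a was 1.20 higher in EY than in N, in all 6 mice (exact permutation p = 0.00433, adjusted p = 0.0253). It was 0.71 higher in EY than in E (exact p = 0.00866, adjusted p = 0.0379), which held in 10 of 19 repeats without 1 mouse.

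In order of mean TPM, the N epithelia had Suz12 and Uhrf1 first, then Ezh1, Hells, Dnmt1 and Eed, then Ezh2, Jarid2, Dnmt3a and Dnmt3b. Suz12 and Uhrf1, at 9.26 ± 1.76 and 9.25 ± 1.59 TPM (SD, n = 5), did not differ beyond their spread, nor did neighbours among Ezh1, Hells, Dnmt1 and Eed, or Jarid2 and Dnmt3a. In EY epithelia the order was Uhrf1, Suz12, Hells, Eed, Dnmt1, Ezh2, Ezh1, Dnmt3a, Jarid2 and Dnmt3b, and Ezh1 went from position 3 to position 7. Uhrf1 and Suz12, Suz12 and Hells, Eed and Dnmt1, and Dnmt3a and Jarid2 were neighbours within their spread there.

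The single transgenes gave smaller differences, and which genes passed depended on the processing. In E against N, 4 genes passed as higher, against 1.71% of all genes: Ezh2, Eed, Dnmt1 and Uhrf1, with log2 fold changes of 0.67, 0.62, 0.84 and 0.86 (limma, adjusted p = 0.00752, 0.00942, 0.00852 and 0.00582). None was a DEG, 2 passed after median-of-ratios scaling (1.354% of all genes), and none passed with only the 3 N mice that carried Krt14-CreERT and LSL-rtTA. No gene passed without N mouse 4 or 5 or without E mouse 2, 3, 4 or 5, each left out alone. Over all these fits the log2 fold changes stayed above 0, at 0.55 to 0.74 for Ezh2 and 0.41 to 0.70 for Eed. They were at 0.65 to 0.92 for Dnmt1 and 0.69 to 0.96 for Uhrf1. In Y against N, 2 genes passed as higher, against 7.17% of all genes: Eed at 0.70 and Uhrf1 at 0.82 (limma, adjusted p = 0.00381 and 0.00727). Neither passed after scaling (limma, adjusted p = 0.0134 and 0.0196), with only the 3 N mice, or without Y mouse 3. Over all these fits Eed stayed at 0.49 to 0.78 and Uhrf1 at 0.58 to 0.95. By contrast, the 6 genes higher in EY against N passed in each of the 11 other fits and in each of the 19 fits without 1 mouse. The comparisons of EY, Y and E with N share the N mice.

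EY was also set against each single transgene. The study reports invasive carcinoma in part of the EY mice at this time, in no E mice, and in Y mice only later. Effects of a transgene and of such lesions cannot be told apart in these comparisons. Against E, which lacked the active YAP, Ezh2, Eed, Suz12, Uhrf1 and Hells passed as higher, against 18.1% of all genes, and Ezh1 as lower, against 7.16%. Hells had the largest log2 fold change at 1.37 (limma, adjusted p = 6.78e-06), followed by Suz12 at 0.98, Uhrf1 at 0.81 and Eed at 0.79. These 4 also passed in each of the 11 other fits and without each mouse. Ezh2 at 0.45 passed by a small margin (limma, adjusted p = 0.00998) and did not pass after scaling (0.19, adjusted p = 0.240), and it passed in 7 of 11 other fits and in 4 of 19 without 1 mouse. Dnmt1 at 0.40 did not pass (limma, adjusted p = 0.0648). Ezh1 was at -0.43 (limma, adjusted p = 0.00346), and at -0.69 after scaling, and passed in 11 of 11 other fits and in 17 of 19 without 1 mouse.

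Against Y, which lacked E6-E7, Ezh2, Eed, Suz12, Dnmt1, Uhrf1 and Hells passed as higher, against 2.34% of all genes. Hells was at 1.26 and Suz12 at 0.91 (limma, adjusted p = 0.00100 and 0.000948), and these were the genes that also passed after scaling. The other 4 had adjusted p values of 0.00564 to 0.00912, and no gene passed without Y mouse 1. Over all fits Hells ran from 1.08 to 1.36 and Suz12 from 0.74 to 0.98 (limma, adjusted p at most 0.0114 and 0.0107). Ezh2 ran from 0.52 to 0.81, Eed from 0.53 to 0.78, Dnmt1 from 0.68 to 0.98 and Uhrf1 from 0.67 to 0.93.

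Y and E epithelia were compared directly too. No gene of the 10 passed in limma, against 4.34% of all genes, and none passed with voom on the recovered reads. At an unadjusted p below 0.05 there were 3 of 10, Ezh1, Dnmt1 and Dnmt3a, lower in Y, near the 23.3% of all genes at that threshold. No gene passed for the interaction EY - E - Y + N, in limma or with voom, against 0.198% of all genes, and 3 of 10, Hells, Suz12 and Ezh1, had an unadjusted p below 0.05, as did 13.5% of all genes. In Hells (0.74, limma adjusted p = 0.220) and Suz12 (0.44, limma adjusted p = 0.324) EY was above the sum of the single effects on the log2 scale. In Ezh1 it was below (-0.38, limma adjusted p = 0.312).

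Genes of DNA replication and mitosis also rose. All 6 of Mcm2 to Mcm7, the replicative helicase, passed as higher in EY, with a median log2 fold change of 2.00, as did 9 of 10 S phase genes (1.84) and 7 of 7 mitosis genes (2.94), against 23.9% of all genes and their median of 0.33. The summed TPM of Mcm2 to Mcm7 was 95.6 ± 8.03 (SD, n = 5) in N, 223 ± 41.9 (n = 5) in E, 166 ± 24.7 in the 3 Y mice and 381 ± 96.6 in the 6 EY mice. Within mice, Ezh2 and Dnmt1 rose less than the helicase. The log2 ratio to the mean of Mcm2 to Mcm7 was 0.89 lower in EY than in N for Ezh2, and 0.77 lower for Dnmt1, in all 6 EY mice (exact permutation p = 0.00433 and adjusted p = 0.0253 for each). For Uhrf1 it was 0.34 lower (exact p = 0.0390, adjusted p = 0.0817) and for Hells 0.12 lower (exact p = 0.645, adjusted p = 0.705), neither with an adjusted p below 0.05. The number of EY mice below every N mouse was 5 of 6 for Uhrf1 and 1 of 6 for Hells. In E against N the ratios of Hells, Ezh2, Dnmt1 and Uhrf1 were 0.70, 0.55, 0.38 and 0.36 lower (exact p = 0.0159, 0.0238, 0.0397 and 0.00794, adjusted p = 0.0617, 0.0694, 0.0817 and 0.0379). With a pseudocount of 1 TPM all 4 had an adjusted p below 0.05. In that comparison the ratio of Uhrf1 kept an adjusted p below 0.05 in 9 of 19 repeats without 1 mouse. In EY against E the ratio of Hells to the helicase was 0.58 higher (exact p = 0.0216, adjusted p = 0.0694). These ratios use the helicase alone as reference, and the part of cell division in the members' levels was not tested.

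**Figure D3:**
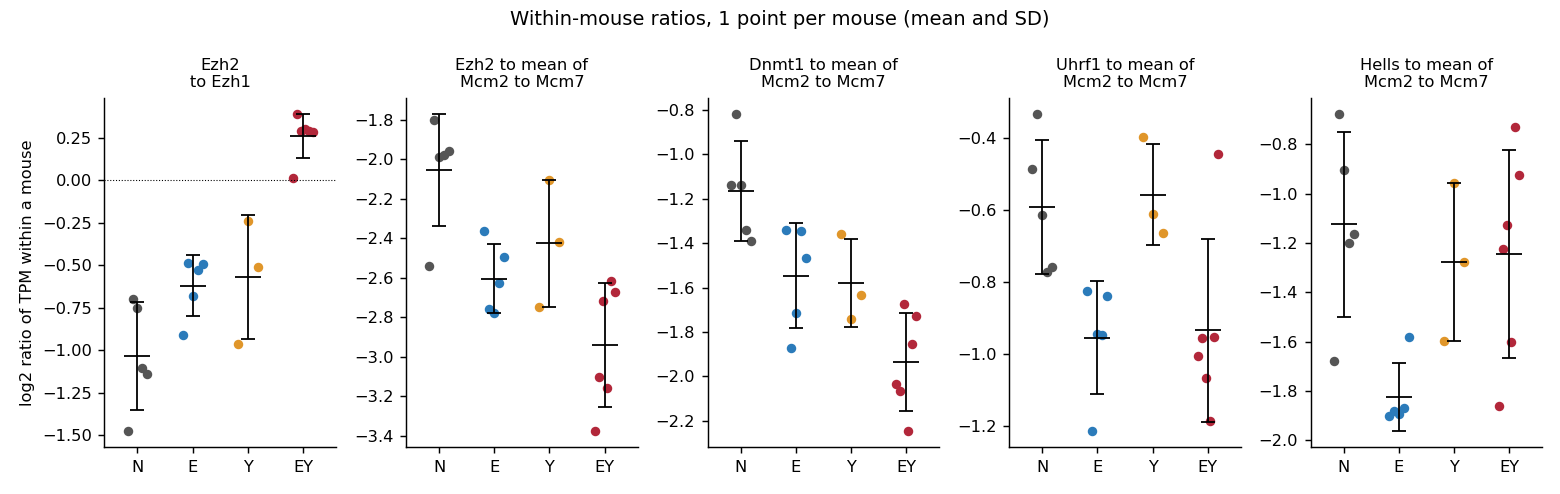
Log2 ratios of TPM within a mouse (vertical axes) for Ezh2 to Ezh1 and for Ezh2, Dnmt1, Uhrf1 and Hells to the mean of Mcm2 to Mcm7, 1 point per mouse, with the mean and SD. Ezh2 to Ezh1 is above 0 in the 6 EY mice and below 0 in the others, and Ezh2 and Dnmt1 to the helicase have their lowest means in EY.

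Since 6 members moved together, their promoters were searched for short motifs. RefSeq promoters (GRCm38.p6, from 250 bases before to 50 after each start) were matched for 10 of 10 genes, with 16 windows. An E2F motif, TTTCCCGC, TTTGGCGC or TTTCGCGC on either strand, lay in a window of 5 of the 6 genes higher in EY and of 0 of the other 4, and in 3.52% of the 13139 tested genes with a promoter in the table. Eed was the gene higher in EY with no such match. The motif began 62 bases before the start in Hells, 219 before in Suz12, 219 before and again 33 after in Dnmt1, 185 before in Uhrf1 and 3 bases after it in Ezh2. CCAAT lay in a window of 6 of the 10 genes (41.8% of tested genes), TTTGAA in 4 (15.5%) and the TEAD motif GGAATG in 1, Uhrf1 (14.9%). Genes with several windows have more chances of a match, and a match is a description of letters, not of a bound site. The 250 bases before the start are shown for Suz12 (chr11:79992856-79993105, plus strand) and the second window of Uhrf1 (chr17:56304063-56304312, plus strand), 2 genes with no overlap between EY and N, with the E2F motif in capitals, and for Ezh1 (chr11:101226464-101226713, minus strand), which has no match:
Suz12: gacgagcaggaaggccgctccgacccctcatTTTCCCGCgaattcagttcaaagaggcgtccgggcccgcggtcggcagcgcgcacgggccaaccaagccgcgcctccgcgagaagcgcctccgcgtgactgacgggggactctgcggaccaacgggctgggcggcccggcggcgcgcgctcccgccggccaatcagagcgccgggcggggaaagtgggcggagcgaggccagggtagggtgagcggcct
Uhrf1: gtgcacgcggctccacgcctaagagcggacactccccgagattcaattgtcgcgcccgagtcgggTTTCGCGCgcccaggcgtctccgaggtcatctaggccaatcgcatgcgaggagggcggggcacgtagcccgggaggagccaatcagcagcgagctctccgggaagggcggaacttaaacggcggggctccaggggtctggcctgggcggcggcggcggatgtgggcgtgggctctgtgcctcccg
Ezh1: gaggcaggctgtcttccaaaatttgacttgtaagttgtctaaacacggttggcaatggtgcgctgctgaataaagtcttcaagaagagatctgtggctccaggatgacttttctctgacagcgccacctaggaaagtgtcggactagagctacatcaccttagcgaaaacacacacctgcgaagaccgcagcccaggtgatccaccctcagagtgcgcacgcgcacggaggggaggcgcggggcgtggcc

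Other genes of these pathways were counted by list. Of 9 PRC2 accessory genes, 7 passed as higher in EY and none as lower, against 23.9% and 7.97% of all genes, with a median log2 fold change of 1.06 (0.33 over all genes). Epop, which tunes PRC2 activity, went from 11.1 ± 3.45 TPM (SD) in the 5 N mice to 88.7 ± 17.6 TPM in the 6 EY mice, with a log2 fold change of 3.02 (limma, adjusted p = 2.65e-08), and it also passed in Y at 1.99 (adjusted p = 0.000166). The histone chaperone Rbbp7 rose by 1.41. After scaling 4 of the 9 passed, Epop, Rbbp7, Rbbp4 and Lcorl, against 13.5% of all genes.

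PRC1 ubiquitylates histone H2A at PRC2 targets. Of 20 genes 5 passed as higher, among them L3mbtl2 (1.33) and Bmi1 (1.13), and 1 as lower, near the 23.9% and 7.97% of all genes, and the median of 0.34 was close to that of all genes (0.33). After scaling 4 of 20 passed as higher and 4 as lower, against 13.5% and 13.9% of all genes. Of 5 genes that remove H3K27me3 or H2A ubiquitin, Bap1 (0.84) and Asxl1 (0.82) passed as higher, and the demethylase genes Kdm6a and Kdm6b, at 0.05 and 0.04, did not pass. The median of this list, 0.29, was below that of all genes (0.33), of which 23.9% passed as higher.

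Of 7 partners of DNA methylation 2 passed as higher, Cdca7l (0.88) and Uhrf2 (0.64), near the 23.9% of all genes. Neither passed after scaling, and Usp7 passed as lower after scaling alone (-0.50), near the scaled share of all genes (13.5% higher and 13.9% lower). Of 4 tested genes of DNA demethylation, against 23.9% higher and 7.97% lower among all genes, Tdg (1.27) and Mbd4 (1.08), which act in base excision, passed as higher and the dioxygenase gene Tet3 as lower (-0.64), and Tet1 was too low for testing. Of 7 readers of methylated CpG, Mbd3 (0.83) and Mbd2 (0.67) passed as higher, again near that share and neither after scaling, and Zbtb4 as lower (-1.30).

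Genes that PRC2 or promoter methylation silence in many tissues were read as a target list. Of 16 PRC2-silenced developmental genes 10 had a symbol in the table and 6 were tested, of which 1 passed as higher and 1 as lower (2 after scaling), against 23.9% and 7.97% of all genes (13.5% and 13.9% after scaling). Hoxd9 was at 0 TPM in all N and E mice and passed the filter on low values only through Y and EY mice. Foxd3 was at 0 TPM in all E and Y mice. The counts of this list are thus in part set by that filter and are not read against the all-gene shares. Cdkn2b passed as lower (-1.22, limma adjusted p = 0.00120). Cdkn2a passed as higher (1.88, limma adjusted p = 0.00390), from 0.0457 ± 0.0707 TPM (SD, n = 5) in N to 0.508 ± 0.402 TPM (n = 6) in EY epithelia. Its medians in N (0.0275 TPM) and Y (0.0324 TPM) were below the filter of 0.1 TPM, which it passed through E and EY mice. Its call was thus in part set by that filter, and its fold change by the pseudocount of 0.1 TPM. Cdkn2a was at a similar 0.497 ± 0.279 TPM in E epithelia, where its difference from N did not pass (2.01, limma adjusted p = 0.0311), and at 0.0584 ± 0.0749 TPM in Y epithelia. Of 12 germline genes 4 were tested, with a median of 0.33 equal to that of all genes, and of these, against 23.9% higher and 7.97% lower among all genes, Tdrd1 passed as higher (3.17, limma adjusted p = 1.09e-05) and Tex101 as lower (-3.18, adjusted p = 0.000689). Tdrd1 ranged from 0.165 to 0.898 TPM in N, from 1.51 to 4.95 TPM in E, from 0 to 0.263 TPM in Y and from 2.51 to 6.48 TPM in EY mice. Histone marks and DNA methylation were not measured in these samples.

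**Figure D4:**
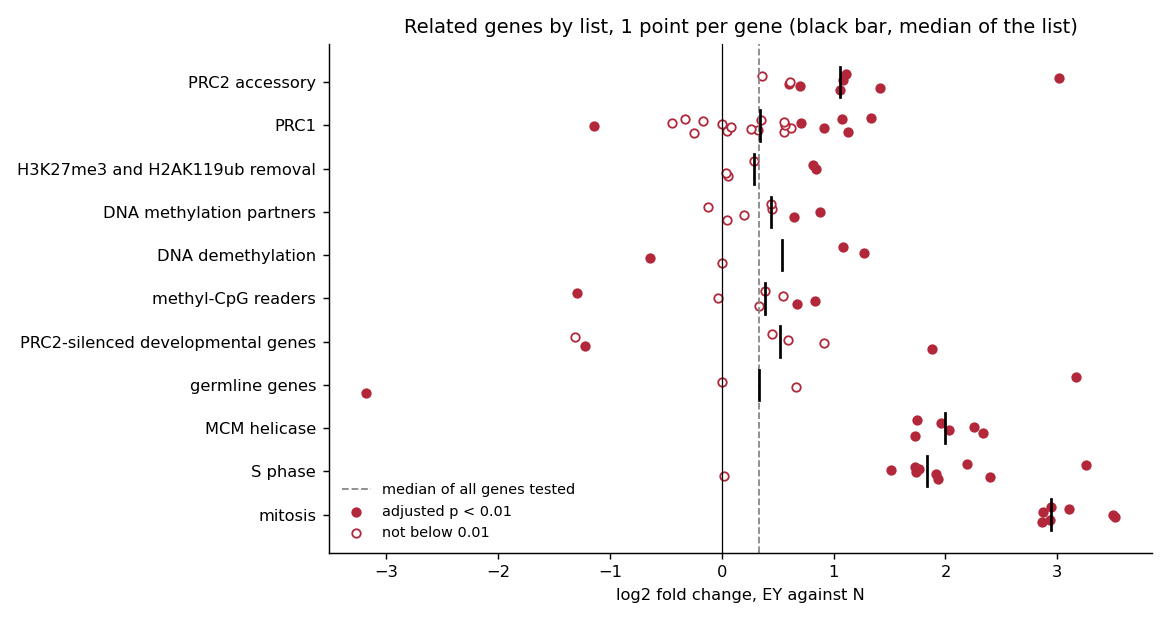
Log2 fold change in EY against N (horizontal axis) of the tested genes of 11 lists, 1 point per gene, filled where the adjusted p was below 0.01, with the median of each list and that of all genes tested (dashed, 0.33). The PRC2 accessory genes have a median of 1.06 and the MCM genes of 2.00, while PRC1 lies on both sides of 0.

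Marker counts below stand against 23.9% higher and 7.97% lower among all genes (13.5% and 13.9% after scaling). Defining markers put the samples in the tongue epithelium: Krt14, a basal keratin, was at 6048 ± 1653 TPM (SD) in the 5 N mice and 16718 ± 5601 TPM in the 6 EY mice, and Krt13, a suprabasal keratin, at 71112 ± 15509 and 20862 ± 3440 TPM. The summed basal list was 9229 ± 2233 TPM (SD, n = 5) in N, 11000 ± 2385 (n = 5) in E, 21088 ± 8057 in the 3 Y mice and 22827 ± 6249 in the 6 EY mice, with Krt14, Krt5 and Itga6 of its 6 genes passing as higher, of which Krt14 alone after scaling, and Col17a1 as lower in EY. The suprabasal list had 3 of 6 genes lower in EY. Of 6 neutrophil markers 3 passed as higher, Ly6g, Cd177 and Mmp8, with a summed level of 1.22 to 7.62 TPM in N and 1.85 to 126 TPM in EY mice, led by Retnlg. All N, E and Y mice had 0 TPM of Ly6g, and the EY mice 0 to 2.31 TPM. Cd177 was at most 0.0349 TPM in N and 1.22 TPM in EY mice. Ly6g passed the filter on low values only through EY mice, and Cd177 only through Y and EY mice. Their calls were thus in part set by that filter and are not read against the all-gene share. Of 6 T cell markers Cd3d passed as higher, near the all-gene share, though each gene was above 0, with a median log2 fold change of 1.46 (0.33 over all genes). Their summed levels were 0.555 to 2.67 TPM in N and 3.54 to 7.01 TPM in EY mice. Of 4 Langerhans cell markers Epcam passed as higher and Cd207 as lower. No gene of the skeletal muscle (8), macrophage (6), endothelium (4 tested), Schwann cell (3) or taste receptor cell (2 tested) lists passed. The muscle and macrophage genes had medians of 1.77 and 1.12 in EY, each gene above 0, with wide spread between mice. Summed muscle markers, led by Acta1, reached 1280 TPM in an EY mouse and summed endothelium markers were at most 3.58 TPM. In the fibroblast, B cell and melanocyte lists 1 gene each passed as lower. The part of these cell types in the members' levels was not tested.

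Genes most like each member over the 19 mice were found by Pearson correlation of log2(TPM + 0.1), which includes the differences between groups. Suz12 and Hells were among each other's closest genes (r = 0.99, and 0.86 after the group means were taken off), and both were close to Usp1 (r = 0.99 and 0.98) and Haus6 (0.98 and 0.99). The closest gene was Nsd2 to Ezh2 (0.97), Gmnn to Eed (0.98), Rad54l to Uhrf1 (0.98) and Cdk5rap2 to Dnmt1 (0.95). Dnmt1 and Uhrf1 correlated at 0.93, and at 0.83 after the group means were taken off, and Ezh1 and Ezh2 at -0.23 and 0.03. For the remaining members the closest gene was Ovol1 to Ezh1 (0.87), Slc16a6 to Jarid2 (0.85), Nr1h3 to Dnmt3a (0.87) and Gmeb2 to Dnmt3b (0.89).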

How the data were processed

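RNA of microdissected tongue epithelia was polyA selected, primed with random hexamers and sequenced on a NovaSeq6000, per the labels. The authors aligned reads with STAR 2.7.9 to GRCm39, handled them with SAMtools 1.7, counted them with HTSeq 0.13.5, and used DESeq2 1.34.0 for their own tests. The TPM values were used as the authors deposited them, and their conversion from counts to TPM was not stated. Neither was the use of strand in counting. No column was left out.

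Whole reads were recovered from the steps between TPM values for 24680 of the 24680 genes above 0, where whole meant within 0.01 of an integer, with medians of 9637779 reads for the N, 8848776 for the E, 8679053 for the Y and 9448942 for the EY mice. At 10 reads, as for Dnmt3b in the lowest mouse, counting noise is large.

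Testing used limma 3.58.1 (R 4.3.3) for genes at 0.1 TPM or more in at least 3 mice, on log2(TPM + 0.1), with all 4 groups in 1 fit, a mean-variance trend and Benjamini-Hochberg adjustment over all genes tested. A gene passed at an adjusted p below 0.01. Ratios within mice were compared by exact permutation of group labels and adjusted over the 35 ratio tests. The fit was tested on simulated data with known changes in EY: it called 34 of 100 genes changed by a log2 fold change of 1 and 61 of 100 changed by 2, with median estimates of 0.94 and 1.99 and 2 false calls. Ratios, correlations, promoter matches and figures used Python 3.11.15, numpy 2.4.6, pandas 2.3.3, scipy 1.17.1 and matplotlib 3.10.9.

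The fits were repeated with a block for mouse number, with robust moderation, with the pseudocount set to 1 or 0.01 TPM, with the filter at 1 TPM or at any value above 0, with scaling by median of ratios, with quantile normalization, with only the 3 N mice of genotype Krt14-CreERT and LSL-rtTA, without the groups not compared, with voom on recovered reads, with other thresholds, and with each mouse left out. The members, lists and motifs were chosen with earlier results of these data known. Genes were named when they were members, belonged to a list and passed, or were the closest by correlation or a marker of a cell type. Of the list symbols, 16 had no match in the table and were not used here. The transgenes themselves were not analysed. A result withheld for evaluation is not reported here.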

Additional observations from a re-analysis of the deposited data

Results flagged for a closer look

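Each of the 10 genes was checked in N, E and EY for a mouse far from the others of its group, by the gap to its neighbour over the range of the group. In 30 such checks, each of which passes by chance about 1 time in 20, 2 mice stood out. Dnmt3b was at 0.597 TPM in N mouse 2, where the next N mouse had 0.251 TPM. This gene rests on few reads, and without that mouse its difference between EY and N passed. Hells was at 5.91 TPM in E mouse 1, where the next E mouse had 9.41 TPM. That mouse was also lowest in summed Mcm2 to Mcm7 (154 TPM, against 218 to 263 TPM in other E mice). Its S phase sum was 310 TPM, against 495 to 663 TPM. Its log2 ratio of Hells to the mean of Mcm2 to Mcm7, -1.90, was close to the others (-1.89 to -1.58). A technical and a biological origin of these values cannot be told apart here.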

How the results depend on the processing

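The 6 genes higher in EY against N kept their direction and passed in every alternative fit and without each mouse, with 6 to 8 members passing over the settings (8 with median-of-ratios scaling and with voom, where Ezh1 and Jarid2 passed as lower) and 6 to 7 without 1 mouse (7 without N mouse 2 or EY mouse 2). The other counts moved. For those comparisons, shares of all genes are given above only for the main fit and for median-of-ratios scaling. Counts from other fits or thresholds thus stand without such a share. In Y against N, 2 members passed, and 0 passed with median-of-ratios scaling, 0 with quantile normalization, 0 with only 3 N mice, 0 with only the groups compared, 0 at an absolute log2 fold change above 1, 1 with voom on recovered reads, 1 with the replicate block and 4 at an adjusted p below 0.05, with 0 to 3 without 1 mouse (0 without Y mouse 3, 3 without N mouse 2). Neither single call was among the 2 first genes: with voom it was Jarid2, as lower (-0.78), and with the replicate block Suz12, as higher (0.56). In E against N, 4 passed, and 2 with scaling, 2 with voom, 1 with the replicate block, 0 with only 3 N mice, 0 with only the groups compared and 0 at a log2 fold change above 1, with 0 to 4 without 1 mouse (0 without N mouse 4 or 5 or E mouse 2, 3, 4 or 5). In EY against Y, 6 passed, and 2 with scaling, 2 with quantile normalization, 2 with the replicate block, 3 with voom, 3 with only the groups compared and 1 at a log2 fold change above 1, with 0 to 6 without 1 mouse (0 without Y mouse 1). In EY against E, 6 passed, 1 of them at a log2 fold change above 1, with 4 to 6 without 1 mouse (4 without E mouse 3). With voom the 6 held Dnmt3a as lower (-0.60) in place of Ezh2 as higher. The numbers of the mice do not pair them: over 24 pairs with the same number the correlation of deviations from group means ran from -0.078 to 0.055 (median 0.0070), and 0 were above 0.1, so the replicate block is given for completeness. No member passed in a fit that reversed it. Dnmt3a in EY against N (0.044) was at -0.30 with scaling, -0.22 with quantile normalization, -0.22 with only 3 N mice, -0.024 with the replicate block and -0.33 with voom, and from -0.087 to 0.19 without 1 mouse. Ezh1 in Y against N (-0.048) was at 0.011 with only 3 N mice and from -0.13 to 0.062 without 1 mouse. In EY against Y with quantile normalization, Jarid2 (0.18) was at -0.049 and Dnmt3b (0.30) at -0.013, and Jarid2 ran from -0.11 to 0.41 without 1 mouse. In Y against E, with scaling, quantile normalization and voom, Eed (0.077) was at -0.0099, -0.012 and -0.0075 and Suz12 (0.065) at -0.023, -0.037 and -0.020. Without 1 mouse, Suz12 ran from -0.018 to 0.17, Uhrf1 from -0.14 to 0.095 and Hells from -0.035 to 0.28. For the interaction, Ezh2 (0.040) was at -0.024 with scaling, -0.061 with quantile normalization, -0.0036 with the replicate block and -0.032 with voom (-0.12 to 0.15 without 1 mouse). Dnmt1 (0.032) was at -0.032, -0.039 and -0.029 with scaling, quantile normalization and voom (-0.15 to 0.15). Dnmt3a (0.062) was at -0.14 with quantile normalization (-0.085 to 0.19), and Uhrf1 (-0.0094) at 0.016 with a pseudocount of 1 TPM and 0.16 with only 3 N mice (-0.14 to 0.086). With only 3 N mice fewer label orders exist, so the exact p of comparisons with N cannot be as small, and the adjustment over 35 tests carries this to the others. Each ratio that passed with all N mice then had an adjusted p of 0.0758 to 0.104 and did not pass. Their differences in log2 ratio were 1.24 for Ezh2 to Ezh1 in EY against N and 0.88 in EY against E. For Ezh2 to Eed and Suz12 the difference in EY against E was -0.43. For Dnmt1 to Dnmt3a it was 1.27 in EY against N and 0.71 in EY against E. To the mean of Mcm2 to Mcm7, it was -0.83 for Ezh2 and -0.90 for Dnmt1 in EY against N, and -0.48 for Uhrf1 in E against N. The ratio of Uhrf1 to that mean in Y against N had not passed with all N mice (0.035, exact permutation test, adjusted p = 0.795). It turned to -0.080 with only 3 N mice. The ratio of Dnmt1 to Dnmt3a in EY against E was 0.74 with a pseudocount of 0.01 TPM and no longer passed 0.05 (adjusted p = 0.0568 over the exact tests). With a pseudocount of 1 TPM, the ratio of Ezh2 to Eed and Suz12 was at -0.39 in EY against N, that of Dnmt1 to Dnmt3a at 0.56 in E against N, and those to Mcm2 to Mcm7 in E against N at -0.61 for Ezh2, -0.70 for Hells and -0.41 for Dnmt1. These 5, which did not pass with 0.1 TPM, then passed 0.05 (adjusted p of the exact tests 0.0275 to 0.0427). That of Hells in EY against Y was at -0.0068. Without 1 mouse, Ezh2 to Ezh1 ran from 0.81 to 0.93 in EY against E, Ezh2 to Eed and Suz12 from -0.40 to -0.25 in EY against N and from -0.48 to -0.39 in EY against E, and Dnmt1 to Dnmt3a from 0.59 to 0.79 in EY against E. In EY against E, an adjusted p below 0.05 was kept in 16 of 19 of these for Ezh2 to Ezh1, 16 for Ezh2 to Eed and Suz12, and 10 for Dnmt1 to Dnmt3a. To the mean of Mcm2 to Mcm7, Uhrf1 ran from -0.44 to -0.28 in EY against N, -0.045 to 0.10 in Y against N, -0.41 to -0.30 in E against N and -0.078 to 0.070 in EY against E. Hells ran from -0.26 to 0.0031 in EY against N, -0.31 to 0.0070 in Y against N, -0.13 to 0.19 in EY against Y and 0.48 to 0.70 in EY against E. Apart from the number of label orders, the cause was not tested. With 3 Y mice, and few reads for Dnmt3b, small differences in Y and in that gene could go unseen.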
